A study of Arabidopsis with 6 samples.

Results

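CC-type glutaredoxins are small thiol proteins found only in land plants, named for the adjacent cysteines at the start of their active site. The genes described here are 10 listed loci of this family, chosen by family membership and selected on the log2 difference of AT2G47880, which had come up among the largest falls in apum23 plants in earlier results of these data. All 10 were measured, each by 1 probe set that the annotation pairs with that locus alone, out of 13286 loci measured in the series. No probe set was annotated to more than 1 CC-type gene, so none had to be left out of the count as shared between tandem paralogs. The apum23-to-wild-type contrast chose AT2G47880, so the members' values are given as a description, without p-values.

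The arrays compared aerial parts of apum23 mutants (3 arrays) with those of wild type (Col-3, 3 arrays), both on soil for 21 days at 22 °C with 8 h of light and 16 h of dark. The mutant carries a lesion in APUM23, which encodes a Pumilio-family protein of the nucleolus needed for normal maturation of ribosomal RNA, in the Col-3 background. The series design names the allele apum23-1, whereas the descriptions of replicates 2 and 3 read apum23-2 and apum23-3, so replicate 1 was also compared alone. The annotation used here names no probe set for APUM23, so its own level is not analysed and does not check the labels. The sources used here do not say how plants were pooled, and the spread between arrays may be partly technical.

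As background, glutaredoxins use glutathione to reduce disulfides, and most organisms hold the CPYC and CGFS classes, while the CC class is particular to plants. Several CC-type glutaredoxins bind TGA transcription factors and the TOPLESS corepressors and act on transcription in the nucleus. Some carry signals of nitrogen supply. AT2G47880 is known as CEPD2 and AT1G06830 as CEPD1, polypeptides that are made in the shoot when roots signal nitrogen shortage through CEP peptides and that move through the phloem to raise nitrate uptake. The glutaredoxin row on chromosome 4, known as GRXS3, GRXS4, GRXS5, GRXS7 and GRXS8, is known to be induced by nitrate. The RefSeq gene table gives the 10 members no symbol, so they are called by locus below.

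Values are log2 intensities after quantile normalization, because the deposited columns do not share 1 distribution (array medians 5.70 to 6.10 in apum23 and 5.34 to 5.94 in wild type). The hybridization spike-ins of wild-type replicate 1 were dim, at a mean of 5.36, while they averaged 9.42 to 9.74 on the other 5 arrays. A probe set was called at a limma adjusted p under 0.05 over 22746 probe sets. The lower quartile of each normalized array was 3.60 and its median 5.77, and values near that quartile are close to background. Of the leaf markers only PRK, a Calvin cycle gene, was measured, at 12.13 to 12.49 in apum23 and 12.66 to 12.76 in wild type. PRK was itself called lower in apum23, at -0.44 (limma adjusted p = 0.0172), but not on the deposited values (-0.41). The root hair markers EXPA7 and EXPA18 lay between 3.59 and 4.31 on all arrays. The phloem and flower markers had no measured gene and are not analysed here. In whole shoots, fewer cells of a type and less RNA per cell cannot be told apart.

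The members did not share 1 direction. The 4 measured glutaredoxins of the chromosome 4 row were all higher in apum23, by 0.46 to 0.96 on the log2 scale, while AT2G47880 and, by much less, the neighbouring AT3G62950 and AT3G62960 were lower. The remaining 3 members were not called. In all, 4 of 10 members were called higher, beside 9.69% of all probe sets, and 3 of 10 lower, beside 10.0% of all probe sets. The 3 include AT2G47880, for which the list was proposed, and without it 2 of 9 were lower, so nothing is read from these counts. The median log2 difference was 0.0077 over the 10 members and -0.02 over all probe sets, with the members ranging from -1.72 to 0.96. The apum23 arrays lay wholly above the wild-type arrays for 4 members (15.9% of all probe sets) and wholly below for 4 (18.4%), and the groups overlapped for 2.

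**Figure D1:**
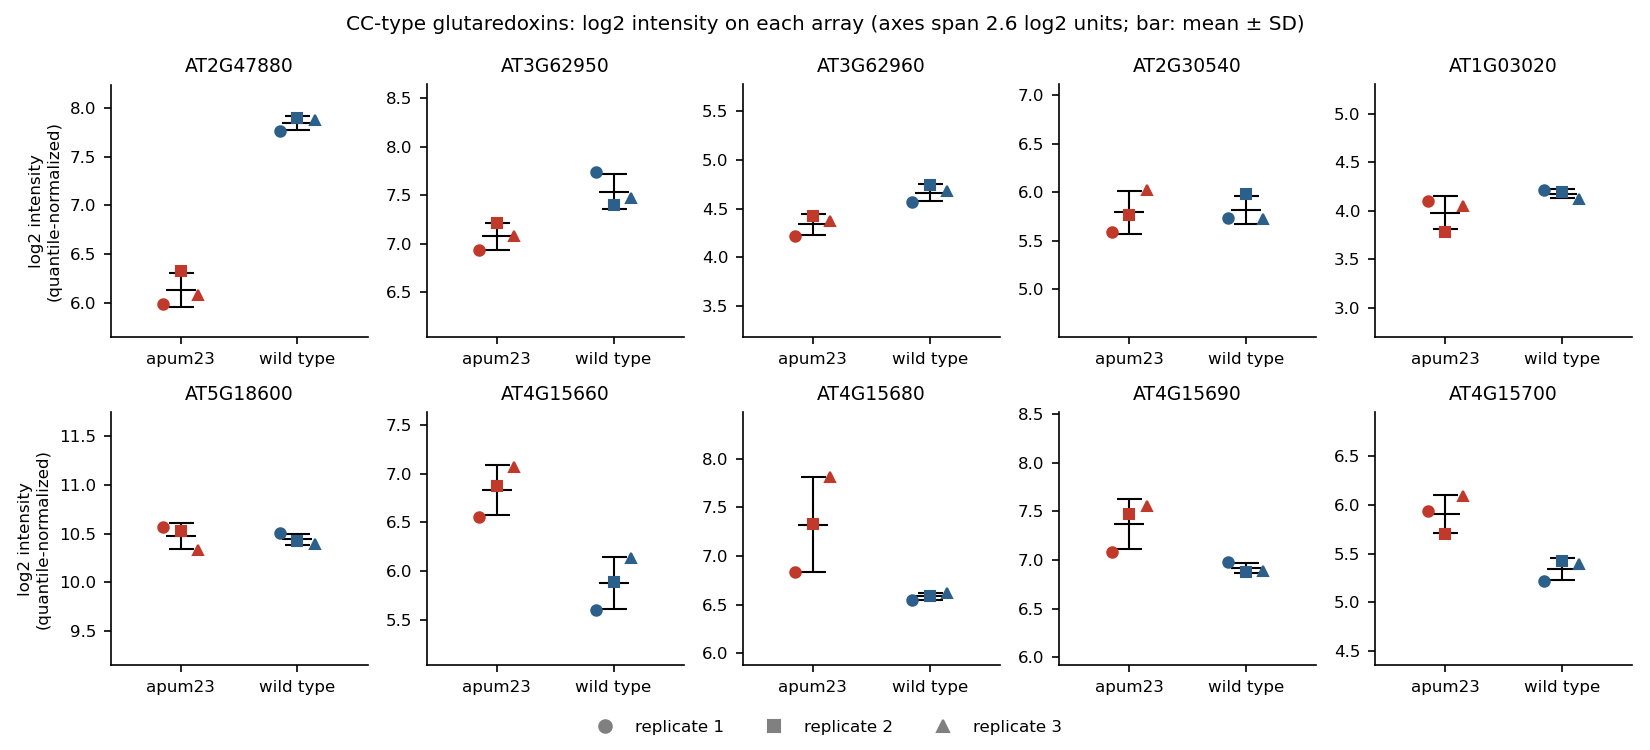
Log2 intensity (quantile-normalized, vertical axis) of each of the 10 members on the 3 apum23 and 3 wild-type arrays, 1 panel per gene, with symbols for replicate numbers and a bar for mean ± SD. AT2G47880 shows the widest gap, with apum23 below wild type, and the 4 genes whose names start with AT4G15 have every apum23 array above every wild-type array.

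AT2G47880 (CEPD2) had 5.99, 6.32 and 6.08 in apum23, against 7.76, 7.90 and 7.88 in wild type. The 3 apum23 arrays lay more than 1 log2 unit below the lowest wild-type array. Means were 6.13 ± 0.17 in apum23 and 7.85 ± 0.07 in wild type (SD, n = 3 each). The log2 difference was -1.72 (SE 0.11), so that the normalized intensity in apum23 was 0.304 times that in wild type, with a 95% interval of 0.257 to 0.359. Among all 22746 probe sets this was the 9th largest fall. The gene had been picked for its large fall in earlier results of these data. Neither the interval nor the range with arrays left out allows for that choice. On the deposited values the gene had 5.92, 6.32 and 6.39 in apum23, against 7.39, 7.92 and 8.11 in wild type, a log2 difference of -1.60. With each array left out in turn the difference ran from -1.81 to -1.66.

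The members closest to AT2G47880 in the family, AT2G30540 and AT3G62960, which belong to the same clade of CEPD-like glutaredoxins, did not share a change of that size. AT2G30540 had 5.59, 5.77 and 6.03 in apum23, against 5.73, 5.98 and 5.73 in wild type. The groups overlapped, and the log2 difference of -0.02 had a 95% interval of -0.30 to 0.26, while the deposited values gave 0.14. AT3G62960 had 4.21, 4.42 and 4.38 in apum23, against 4.56, 4.74 and 4.68 in wild type. Its groups did not overlap after normalization, with a log2 difference of -0.33 (SE 0.10). The gene is dim, below the level of 4.83 that bounds the dimmest 40% of probe sets. On the deposited values its groups overlapped and the difference was -0.16, not called. It was also not called when the fit let the spread vary with intensity (SE 0.13).

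AT3G62950, which lies beside AT3G62960 on chromosome 3, had 6.94, 7.22 and 7.08 in apum23, against 7.74, 7.40 and 7.48 in wild type. All 3 apum23 arrays were lower, and the log2 difference was -0.46 (SE 0.12), or 0.728 times the wild-type intensity (95% interval 0.608 to 0.871). On the deposited values the difference was -0.35 and was not called, although the groups still did not overlap. The calls of this pair were lost with several of the arrays left out, where fewer arrays were tested. AT3G62950 was not called without apum23 replicate 1 (-0.39), apum23 replicate 3 (-0.46) or wild-type replicate 1 (-0.35). AT3G62960 was not called without apum23 replicate 1 (-0.26), apum23 replicate 3 (-0.34), wild-type replicate 2 (-0.29) or wild-type replicate 3 (-0.30).

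AT5G18600 had 10.57, 10.53 and 10.33 in apum23, against 10.50, 10.42 and 10.40 in wild type. The groups overlapped, and the 95% interval of the ratio of apum23 to wild type was 0.878 to 1.197. AT1G03020 was dim on all arrays, at 4.11, 3.79 and 4.05 in apum23, against 4.21, 4.20 and 4.12 in wild type. Its apum23 arrays lay below the wild-type arrays by a small margin. The log2 difference of -0.20 was not called, with a 95% interval of -0.43 to 0.04, and was -0.03 on the deposited values.

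The row on chromosome 4 holds 5 glutaredoxin genes next to each other in the RefSeq gene order, with no other protein-coding gene between them, and 4 of the 5 were measured. AT4G15670 (GRXS7) had no 1-gene probe set and is not analysed here. AT4G15660 (GRXS8) had 6.55, 6.88 and 7.07 in apum23, against 5.60, 5.89 and 6.13 in wild type. Every apum23 array exceeded the highest wild-type array, and the log2 difference was 0.96 (SE 0.16), or 1.94-fold (95% interval 1.53 to 2.46). It was the largest rise among the members.

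AT4G15680 (GRXS4) had 6.83, 7.33 and 7.81 in apum23, against 6.55, 6.58 and 6.62 in wild type. The wild-type arrays agreed closely, whereas the apum23 arrays were spread over about 1 log2 unit, with an SD of 0.49 in apum23 and 0.04 in wild type. The log2 difference was 0.74 (SE 0.19), or 1.67-fold (95% interval 1.25 to 2.23). AT4G15690 (GRXS5) had 7.08, 7.47 and 7.56 in apum23, against 6.98, 6.88 and 6.89 in wild type. Its apum23 arrays were all higher, the lowest by about 0.1, and the log2 difference was 0.46 (SE 0.13), or 1.37-fold.

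AT4G15700 (GRXS3) had 5.93, 5.70 and 6.09 in apum23, against 5.22, 5.42 and 5.39 in wild type. The groups did not overlap, and the log2 difference was 0.57 (SE 0.12), or 1.48-fold (95% interval 1.24 to 1.77). For all 4 genes of the row, apum23 replicate 3 was the highest of the 6 arrays. The 4 genes had a median log2 difference of 0.65, against -0.26 for the 6 members elsewhere in the genome. This split was drawn after the values were seen and was not tested. Whether probes of 1 row gene also bound transcripts of its paralogs was not tested.

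**Figure D2:**
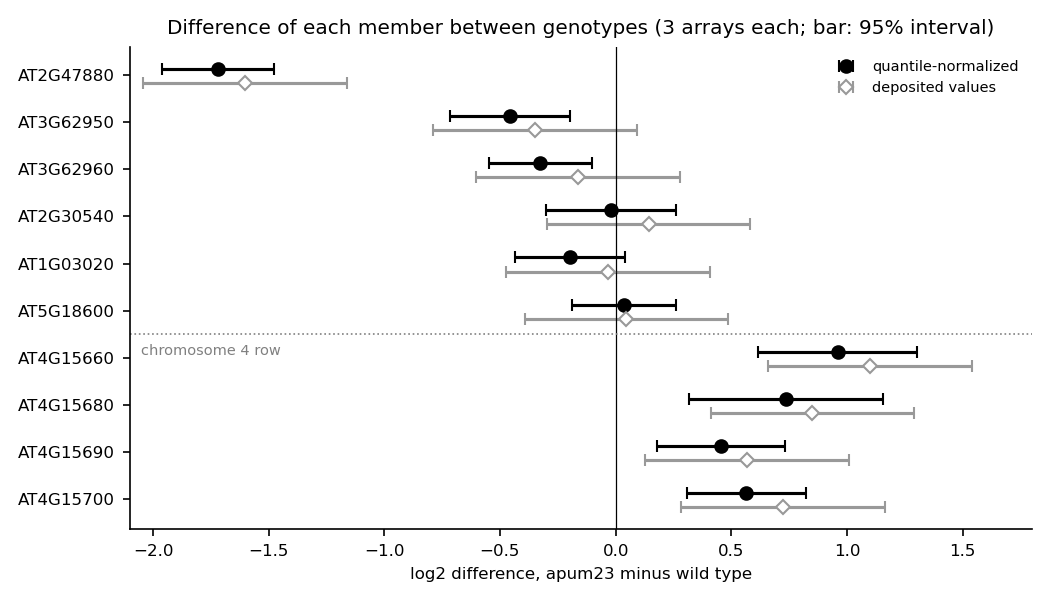
Log2 difference, apum23 minus wild type (horizontal axis), of each member after quantile normalization (filled circles) and on the deposited values (open diamonds), with 95% intervals from 3 arrays per genotype. AT2G47880 stands at -1.72, the 4 genes of the chromosome 4 row between 0.46 and 0.96, and the intervals of AT2G30540, AT1G03020 and AT5G18600 include 0, as do those of AT3G62950 and AT3G62960 on the deposited values.

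Single arrays and the scaling moved some of the row's calls but no direction. AT4G15660 and AT4G15700 were called with any array left out, at 0.82 to 1.10 and 0.48 to 0.67. AT4G15680 was not called without apum23 replicate 2 (0.73), apum23 replicate 3 (0.50), wild-type replicate 1 (0.72) or wild-type replicate 2 (0.74). AT4G15690 was not called without apum23 replicate 2 (0.40), apum23 replicate 3 (0.36), wild-type replicate 2 (0.44) or wild-type replicate 3 (0.44). When apum23 replicate 1 alone stood for the mutant, the differences of AT4G15660, AT4G15680, AT4G15690 and AT4G15700 were 0.69, 0.25, 0.16 and 0.59, and that of AT2G47880 was -1.88. With 1 mutant array the spread comes from wild type only, so these are given as values. On the deposited values 3 of the 10 members were called higher (5.31% of all probe sets) and 1 lower (1.38%), AT4G15690 being the row gene that was not called, at 0.57. The groups of AT4G15680 overlapped on that scale, with the lowest apum23 array at 6.74 and the highest wild-type array at 6.82. Those of AT4G15690 did too, at 6.99 and 7.09. With arrays centred on their medians AT4G15680 (0.68) and AT4G15690 (0.40) were not called, nor was AT3G62960 (-0.33).

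As a measure of likeness, each gene's 6 values were centred on their own mean and the root mean square difference between genes was taken, in log2 units. Within the chromosome 4 row the 6 pairs differed by 0.21 to 0.31. Some other pairs were closer, such as AT3G62950 and AT3G62960 (0.17), and AT4G15700 was nearer to AT5G11930 (0.12) and GRX480 (0.18), outside the row, than to any row gene. AT2G47880 differed from the other 9 members by 0.65 (AT3G62950) to 1.35 (AT4G15660). For genes that differ between genotypes, this measure largely restates the gap between their log2 differences. The distances of other glutaredoxins from AT2G47880 therefore follow from the fall it was picked for, and nothing is read from them. The loci nearest to AT2G47880 over the 6 arrays were not glutaredoxins. They were AT5G09300, of branched-chain amino acid breakdown (0.10), the thionin gene THI2.2 (0.10), the F-box gene AT3G23880 (0.12), the glycosyltransferase gene AT3G55710 (0.13) and ALN, which encodes allantoinase (0.20). Their falls, from -1.71 for THI2.2 to -1.51 for AT3G23880, are of like size by the way these loci were picked.

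AT5G09300 had 4.93, 4.99 and 4.98 in apum23, against 6.56, 6.65 and 6.57 in wild type. THI2.2 had 5.98, 6.32 and 6.36 in apum23, against 7.82, 8.05 and 7.91 in wild type.

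Genes beside the glutaredoxins were compared by gene order in the RefSeq table, taking 10 protein-coding genes on each side of the chromosome 4 row, of the chromosome 3 group (AT3G62930 to AT3G62960) and of the chromosome 2 pair (AT2G47870 and AT2G47880). This was chosen after the members' values were seen. Of 27 measured neighbours, 5 were called higher, 2 lower and 20 were not called, beside 9.69% of all probe sets called higher and 10.0% lower. The genes flanking the chromosome 4 row on either side were not called. AT4G15650, directly before the row, was at -0.07 (limma adjusted p = 0.704) and AT4G15710, directly after it, at -0.14 (limma adjusted p = 0.394). The next gene outward, AT4G15640, rose by 0.87 (limma adjusted p = 9.16e-05), as did AT4G15730, the 4th gene after the row, by 0.60 (limma adjusted p = 0.00213). IAGLU (AT4G15550), farther out before the row, was called lower, at -0.39 (limma adjusted p = 0.0466).

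Around AT2G47880, the nearest measured genes, AT2G47860 (-0.06) and AT2G47890 (0.28, limma adjusted p = 0.072), were not called, and AT2G47870, the adjacent glutaredoxin, had no 1-gene probe set. The call among these neighbours was a rise, by 1.74 for AT2G47780 (limma adjusted p = 1.1e-06), of the rubber elongation factor family of lipid droplet proteins. Beside the chromosome 3 group, AT3G62920 (0.15) and AT3G62970 (0.11) were not called. Farther out, the gibberellin receptor gene AT3G63010 (GID1B) rose by 0.82 and AT3G62860 fell by 0.69 (limma adjusted p = 0.0101 and 0.00103). AT3G62870 was called higher, at 0.41 (limma adjusted p = 0.0223).

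**Figure D3:**
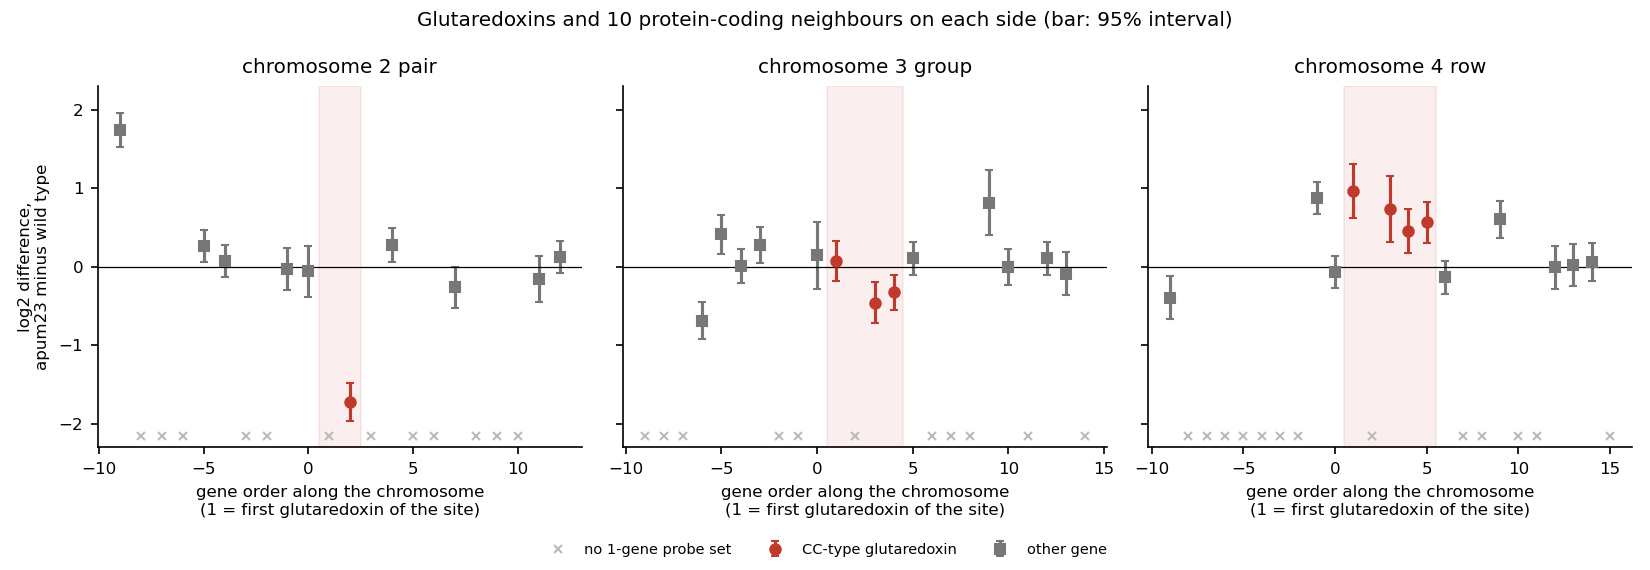
Log2 difference, apum23 minus wild type (vertical axis, bars 95% intervals), of glutaredoxins (circles) and other protein-coding genes (squares) by gene order along the chromosome at 3 sites, with the shaded span marking the glutaredoxins and crosses marking genes with no 1-gene probe set. The 4 measured genes of the chromosome 4 row lie above 0, the genes directly beside the row are at -0.07 and -0.14, and AT4G15640 and AT4G15730, farther out, are at 0.87 and 0.60. IAGLU, farther out before the row, is at -0.39.

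Of the 11 other CC-type glutaredoxins, 7 were measured, with a median log2 difference of 0.08. Of these, 2 were called higher (9.69% of all probe sets), 1 lower (10.0%) and 4 in neither direction. With so few genes, nothing is read from the counts. GRX480, which is induced by salicylic acid and binds TGA factors, had 4.99, 4.49 and 5.10 in apum23, against 3.96, 4.23 and 4.63 in wild type. Its groups overlapped, and it rose by 0.59 (SE 0.18, limma adjusted p = 0.0444). It was not called without apum23 replicate 1 (0.52), apum23 replicate 3 (0.46), wild-type replicate 1 (0.44) or wild-type replicate 2 (0.57). AT5G11930 rose by 0.47 (SE 0.10, limma adjusted p = 0.00866), with 5.06, 4.79 and 5.00 in apum23, against 4.50, 4.41 and 4.54 in wild type. On the deposited values GRX480 was called (0.73) and AT5G11930 was not (0.65), whereas with median centring AT5G11930 was called (0.48) and GRX480 was not (0.56). Both genes are dim, within the dimmest 40% of probe sets by mean level. With those probe sets left out, none of the other CC-type glutaredoxins was called higher.

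AT1G06830 (CEPD1) fell by 0.40 on the log2 scale (SE 0.12, limma adjusted p = 0.0374). It had 8.04, 8.39 and 8.10 in apum23, against 8.49, 8.74 and 8.50 in wild type, and the groups did not overlap. The fall was not called without apum23 replicate 1 (-0.33), apum23 replicate 3 (-0.36) or wild-type replicate 2 (-0.31), nor on the deposited values (-0.34). AT3G62930, of the chromosome 3 group, was at 0.08, and the floral glutaredoxins ROXY1 and ROXY2, of petal and anther development, were at -0.02 and -0.04, all 3 not called.

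None of the 5 measured CPYC-type glutaredoxins of the 6 listed was called by limma, 1 of them (GRXC1) having an unadjusted p under 0.05, and their median was -0.07. The largest difference was that of GRXC1, at -0.38 (limma adjusted p = 0.0607), with 7.39, 7.28 and 7.43 in apum23, against 7.72, 7.50 and 8.01 in wild type. Among the 4 listed genes of glutathione synthesis and reduction, 2 were measured. GR (AT3G54660), the organellar glutathione reductase, fell by 0.44 (SE 0.10, limma adjusted p = 0.00994), with 9.58, 9.58 and 9.52 in apum23, against 10.09, 9.85 and 10.06 in wild type. It was not called on the deposited values (-0.40). The cytosolic glutathione reductase GR1 was at 0.01. The CGFS-type glutaredoxins, the TGA factors and the TOPLESS family had no measured gene and are not analysed here.

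Of 23 listed genes of nitrate uptake, assimilation and response, 4 were measured, with a median of 0.47 that describes only these 4. Of them 2 rose (9.69% of all probe sets) and 2 were not called, AT1G68670 (0.23) and AT3G25790 (0.16). AT3G25790 was close to background, at 2.76 to 3.02 on all arrays. AT1G25550 (HHO3), of a family of nitrate-induced repressors, had 8.44, 8.95 and 8.66 in apum23, against 7.79, 7.64 and 7.96 in wild type. All apum23 arrays were higher, and it rose by 0.89 (SE 0.14, limma adjusted p = 0.00103). AT4G32950, known as CEPH, a phosphatase that acts downstream of the CEPD proteins in roots and activates the nitrate transporter NRT2.1, rose by 0.70 (SE 0.16, limma adjusted p = 0.0105). It had 5.48, 5.60 and 5.47 in apum23, against 4.43, 5.21 and 4.80 in wild type, without overlap. Both were called with each array left out in turn and on the deposited values (0.95 and 0.87). The nitrate transporters, nitrate reductases and the receptors of CEP peptides had no measured gene.

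Of 10 listed type-A response regulators, which are induced by cytokinin and dampen its signalling, 2 were measured. ARR15 had 5.53, 5.44 and 5.46 in apum23, against 6.75, 6.66 and 6.65 in wild type. The arrays of each genotype lay within about 0.1 of each other, and ARR15 fell by 1.21 (SE 0.09, limma adjusted p = 1.12e-05), or to 0.432 times the wild-type intensity. RR16 was lower on all 3 apum23 arrays, at -0.32, and did not pass (limma adjusted p = 0.057). On the deposited values ARR15 was called (-1.06) and RR16 was not (-0.19). Over the 5 lists with measured genes, 4 of 20 genes rose and 3 fell, beside 9.69% and 10.0% of all probe sets.

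**Figure D4:**
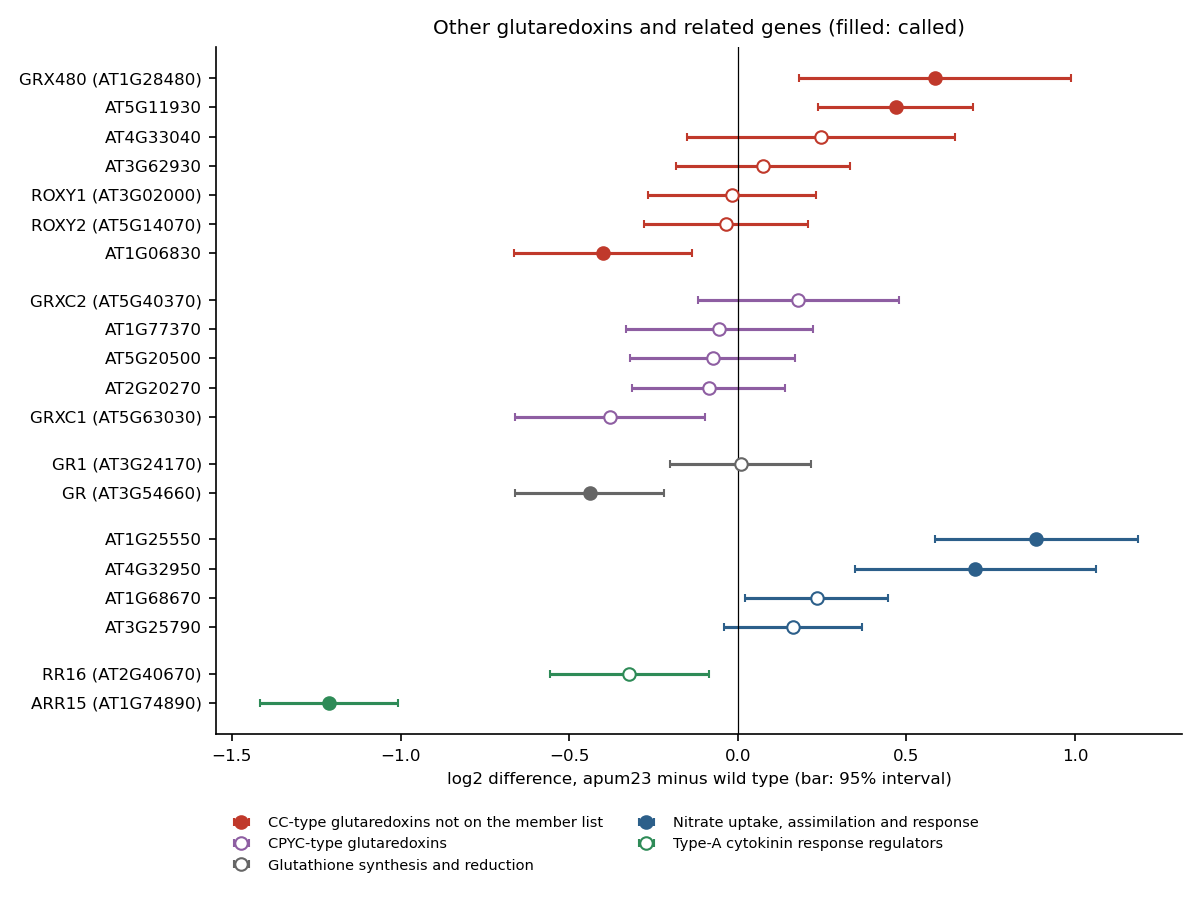
Log2 difference, apum23 minus wild type (horizontal axis, bars 95% intervals), of the 20 measured genes of the other glutaredoxin, glutathione, nitrate and cytokinin lists, with filled symbols for called genes. ARR15 stands farthest below 0, at -1.21, and AT1G25550 farthest above, at 0.89.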

How the data were processed

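Deposited log2 intensities of 6 ATH1 arrays were used, for which the submitters' processing notes name RMA and limma without versions. Of 22810 probe sets, 64 controls were left out. Of the other 22746, the annotation names 1 gene for 13513, several for 503 and none for 8730. RefSeq (TAIR10.1) matched 13436 of the 1-gene probe sets, for 13286 loci, and the brightest stood for its locus.

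Values were quantile-normalized between arrays and compared with lmFit and eBayes of limma 3.58.1 under R 4.3.3 (no block, two-sided, Benjamini-Hochberg over all tested probe sets). Prior degrees of freedom were 7.27 and the median SE was 0.11. On the deposited scale the prior was infinite and every SE was 0.22, so a call there is a fold threshold, 0.66 or more. The number of arrays limits the precision.

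Members and lists were chosen with earlier results of these data known. Named genes were all members, up to 2 rising and 2 falling called genes per list or its largest change, and the 5 loci nearest to AT2G47880. Genes beside the glutaredoxins, and listed genes outside this rule (GR1, ROXY1, ROXY2, AT3G62930, RR16, AT1G68670, AT3G25790), were named after their values were seen. In simulated data for 22746 probe sets with normal noise, 200 were changed at each of the log2 sizes 0.5, 1 and 2. The fit recovered 50.5%, 92.0% and 100% of them, with 19 false calls. Far fewer probe sets were changed there than the 4481 called here, so these rates need not hold for these arrays. Alternatives were the deposited scale, median centring, a filter on the dimmest 40%, an intensity trend, a replicate block, each array left out, apum23 replicate 1 alone and a fold threshold.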

Additional observations from a re-analysis of the deposited data

How the results depend on the processing

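No called member, named list gene or locus nearest to AT2G47880 changed direction in any alternative run. PRK and the genes beside the glutaredoxins were not followed through these runs. For groups that do not overlap, leaving arrays out cannot reverse a direction. The replicate block with deposited values was added after seeing the data, and causes were not tested.

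Against 4 members higher and 3 lower, there were 3 and 1 on deposited values, 2 and 2 with median centring, 0 and 1 with apum23 replicate 1 alone, 0 and 1 at an absolute log2 difference of 1 or more, 4 and 1 with deposited values and the block, and 2 to 4 higher and 1 to 3 lower with each array left out. The members' median was 0.25 without the dimmest 40%, which removes AT3G62960 and AT1G03020. Against 4481 probe sets called (2205 higher, 2276 lower), there were 1522 (1208, 314) on deposited values, 1196 higher and 1801 lower with median centring (39.9% higher, against 49.2%; 79.4% on deposited values), 1697 (934, 763) with replicate 1 alone, 382 (285, 97) at an absolute log2 difference of 1, 2604 (1949, 655) with deposited values and the block, and 2957 to 4049 with each array left out (1413 to 1941 lower). The 4 listed genes higher and 3 lower became 3 and 1 on deposited values, 2 and 5 without the dimmest 40%, 1 and 1 with replicate 1 alone, 0 and 1 at an absolute log2 difference of 1, and 4 and 1 with deposited values and the block.

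Members that were not called changed sign: AT2G30540 was at 0.14 on deposited values, with or without the block, and at -0.14 to 0.084 with each array left out (0.084 without apum23 replicate 1), and AT5G18600 was at -0.12 with median centring and at -0.011 to 0.11 with each array left out. GRXC1 was called at -0.38 without the dimmest 40%, with the trend and with the block, and at -0.50 without wild-type replicate 2. After quantile normalization, same-numbered arrays' deviations correlated at -0.21, 0.03 and 0.00028, and the numbers were not taken as pairs. Quantile normalization removes shifts of whole arrays, so this check cannot exclude pairing. The deposited medians of replicates 1 to 3 were 5.70, 5.75 and 6.10 in apum23 and 5.34, 5.77 and 5.94 in wild type. On deposited values the block raised the probe sets called from 1522 to 2604. With the replicate block on quantile-normalized values 3992 probe sets, 4 members higher and 2 lower were called, AT3G62960 losing its call. The intensity trend also gave 4 members higher and 2 lower, again without AT3G62960. Dim values near the lower quartile of 3.60 limit AT1G03020 and AT3G62960, and GRX480, AT5G11930, ROXY1 and ROXY2 also lie within the dimmest 40%.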
